A study of Mus musculus with 9 samples.

Results

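The genes described here encode the lysosome and the proton pump that acidifies it: cathepsins, other lysosomal hydrolases with their activators and luminal partners, lysosomal membrane proteins, the transcription factor Tfeb, and subunits of the vacuolar H+-ATPase (V-ATPase). The members were 46 gene symbols, of which 45 matched 1 row each in the table of 38674 genes. Cathepsin L (Ctsl) was not analysed here. The 45 members comprised 10 cathepsins, 5 membrane proteins, 12 hydrolases, activators and luminal proteins, 1 regulator, and 17 V-ATPase genes.

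Lysosomes degrade material delivered by endocytosis, phagocytosis and autophagy. Their enzymes work at acidic pH, which the V-ATPase maintains by coupling ATP hydrolysis in its cytosolic V1 sector to proton transport through its membrane V0 sector. In the testis, Sertoli cells and macrophages take up residual bodies and dying germ cells, and the acrosome of spermatids is an acidic, protease-containing organelle that is built from Golgi vesicles and shares several features with lysosomes.

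Testes of male C57BL/6 mice carrying 2 intact Pfn3 alleles (Pfn3+/+, WT), 1 intact allele (Pfn3+/-, Het) or no intact allele (Pfn3-/-, KO) were profiled, with 3 samples per genotype. Pfn3 encodes profilin 3, a testis-expressed member of the actin-binding profilin family, and was inactivated by a CRISPR/Cas9 deletion present in every cell of the animal. By the study's methods, its animals were sexually mature males a few months old. The deletion line used for RNA-seq and the age of each animal are not given in the sources used here. RNA was taken from whole testis without its capsule, so the values mix all testicular cell types, and fewer cells of a type cannot be told apart from less RNA per cell.

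The libraries were 3′ mRNA libraries (QuantSeq), which sample the 3′ ends of polyadenylated RNA, about 1 read per molecule captured. Values are normalized counts, which are reads per gene, as estimated with StringTie, divided by 1 size factor per sample. Between 3375546 and 4287335 reads per sample were counted on genes, and the detection limit of 3 reads was worth 2.58 to 3.71 normalized counts, counting error alone considered. WT 1 stood apart from the other samples, with a median correlation of 0.764 with the other 8 libraries over 14165 genes, followed by Het 1 at 0.798, while the remaining libraries ranged from 0.837 to 0.880. Of the 41 members with a mean of at least 10, WT 1 was the lowest sample for 12 and the highest for 9, against 27.9% and 26.1% of all genes. Normalized counts of Pfn3 itself were 592, 383 and 373 in WT, 136, 339 and 326 in Het, and 74.7, 215 and 279 in KO, so reads from the locus remained in the KO samples, and the log2 fold change of -1.41 (SE 0.52) did not pass the test (limma, adjusted p = 0.610). A 3′ read can lie outside the deleted part of the gene, so this value does not check the genotype labels. Summed spermatocyte and spermatid markers were abundant in every sample. The 6 spermatogonia markers summed to 480 to 935 normalized counts in WT, 738 to 1039 in Het and 808 to 938 in KO. Some of them were low, such as Uchl1 at 0 in Het 1. Of the epididymal markers, 5 of 6 were at 0 in all samples, and of 8 Sertoli cell markers Amh was at 0 throughout.

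In the comparison of KO with WT, no lysosomal or V-ATPase gene was called by limma. That is, none combined an adjusted p under 0.05 with a change of over 1.5 on the log2 scale. Cathepsin H (Ctsh) came nearest, with 9.45 to 11.6 normalized counts in KO against 59.9 to 107 in WT. Of the 45 members, 40 reached 10 normalized counts in 3 or more of the 6 libraries compared and were tested with limma on log2(normalized count + 1). None of the 40 was called, while 0.0352% of all 14223 genes tested were called. At an unadjusted p under 0.05 there were 2 members, Ctsh and Ctsc, or 5% of those tested against 8.07% of all genes. DESeq2, the method the study used, called 2 members on the recovered reads, Ctsh and Atp6v0c, against 0.717% of all genes. No member was called by edgeR, for which the share of all genes is not given here. The labels do not say how the samples of a genotype were obtained, so these p-values measure the spread between the samples and no more.

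The differences between KO and WT were spread around 0 for these genes. For 23 members the log2 fold change was above 0 (57.5%, against 51.4% of all genes) and for 17 it was below 0, with a median of 0.05 and a range from -2.95 to 1.72, and the median over all genes tested was 0.02. For 33 of the 40 members the log2 fold change was smaller than 1 in either direction. KO and WT samples did not overlap for 4 members, which is 10% of those tested against 19.9% of all genes. Ctsc and Atp6v1h were higher in all KO samples, as were 9.41% of all genes, and Ctsh and Lamp1 were lower, as were 10.5%. When reads were scaled by the total counted in each sample instead, the median log2 difference of all genes shifted from 0.02 to 0.22 and that of the members from 0.05 to 0.24. The split of members above and below 0 then became 29 to 11, for which the share of all genes is not given here. The number of members without overlap became 10, against 23.5% of all genes. Of these 10, 9 were higher in KO, which 18.1% of all genes were, and Lamp1 was no longer among them.

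**Figure D1:**
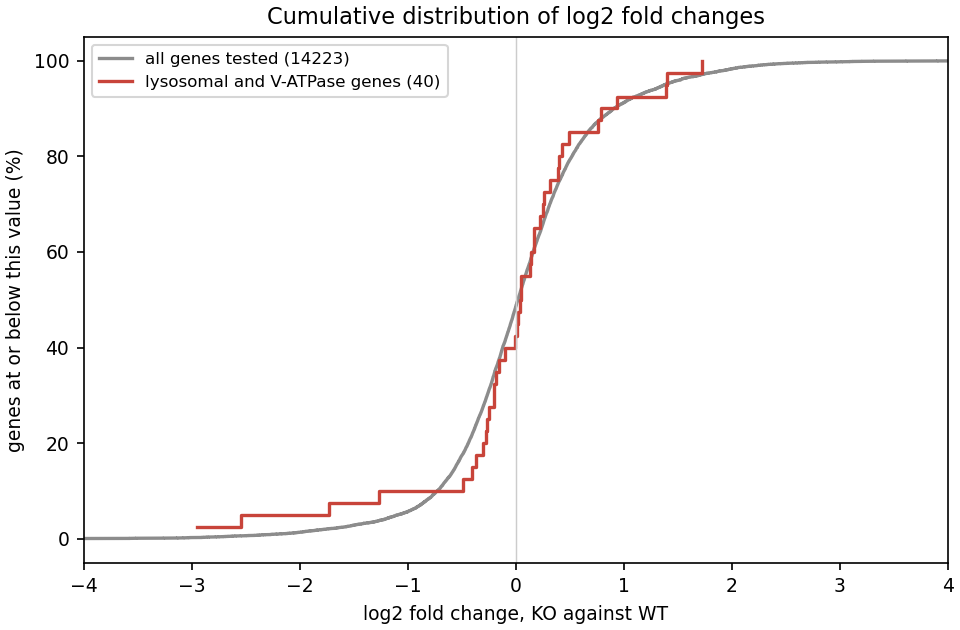
Cumulative share of genes (y axis, percent) at or below each log2 fold change of KO against WT (x axis) for the 40 lysosomal and V-ATPase genes tested (red) and all 14223 genes tested (grey). The medians are 0.05 and 0.02, and the lowest member is Ctsh at -2.95.

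Ctsh encodes cathepsin H, a cysteine protease with aminopeptidase activity. It lies on the plus strand of chromosome 9 of GRCm38 from 90054152 to 90076089, with no other annotated gene within 3 kb. Its normalized counts were 99.0, 107 and 59.9 in WT, 86.0, 98.7 and 58.2 in Het, and 9.45, 11.6 and 9.83 in KO. The KO values rested on 11, 12 and 11 reads. All KO samples lay below all WT and Het samples, and the WT and Het samples overlapped.

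The mean of Ctsh was 88.7 ± 25.3 (SD, n = 3) in WT, 81.0 ± 20.7 in Het and 10.3 ± 1.15 in KO. The log2 fold change of KO against WT was -2.95 (SE 0.31), and the gene ranked number 8 of 14223 by p, with an adjusted p of 0.0993 by limma, which missed the threshold. Against Het the log2 fold change was -2.83 (SE 0.28), with an adjusted p of 0.0685 and rank 9 of 14343. Both comparisons use the same KO samples. Het and WT differed by -0.12 (SE 0.33, limma adjusted p = 0.919). The call on Ctsh depended on the test. With all 9 samples in 1 limma fit the adjusted p was 0.0438 for KO against WT and 0.0449 for KO against Het, so that Ctsh was called among 0.0211% and 0.0279% of all genes. DESeq2 gave 8.16e-08 and 1.8e-07, whereas edgeR's quasi-likelihood test called Ctsh in neither comparison. Without 1 sample at a time, the log2 fold change of KO against WT stayed between -3.21 and -2.79. The limma adjusted p then ranged from 0.072 to 0.413, so Ctsh was not called in any of these fits.

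Macrophages are among the cell types known to make cathepsin H. The 10 summed macrophage markers ranged from 473 to 598 normalized counts in WT, 377 to 498 in Het and 436 to 649 in KO. Cd74 was 148 in KO 2 against 12.0 and 14.3 in KO 1 and KO 3, and Cd68 was above 0 in WT 3 and KO 2 only. Of the 8 markers tested, 3 were higher and 5 lower in KO than in WT. By limma, 1 of the 8 had an unadjusted p under 0.05, against 8.07% of all genes. C1qb was lower in all KO samples (35.2, 49.3 and 39.3) than in all WT samples (66.9, 74.3 and 62.8), as were 10.5% of all genes. The part of these cells in the Ctsh values was not tested.

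**Figure D2:**
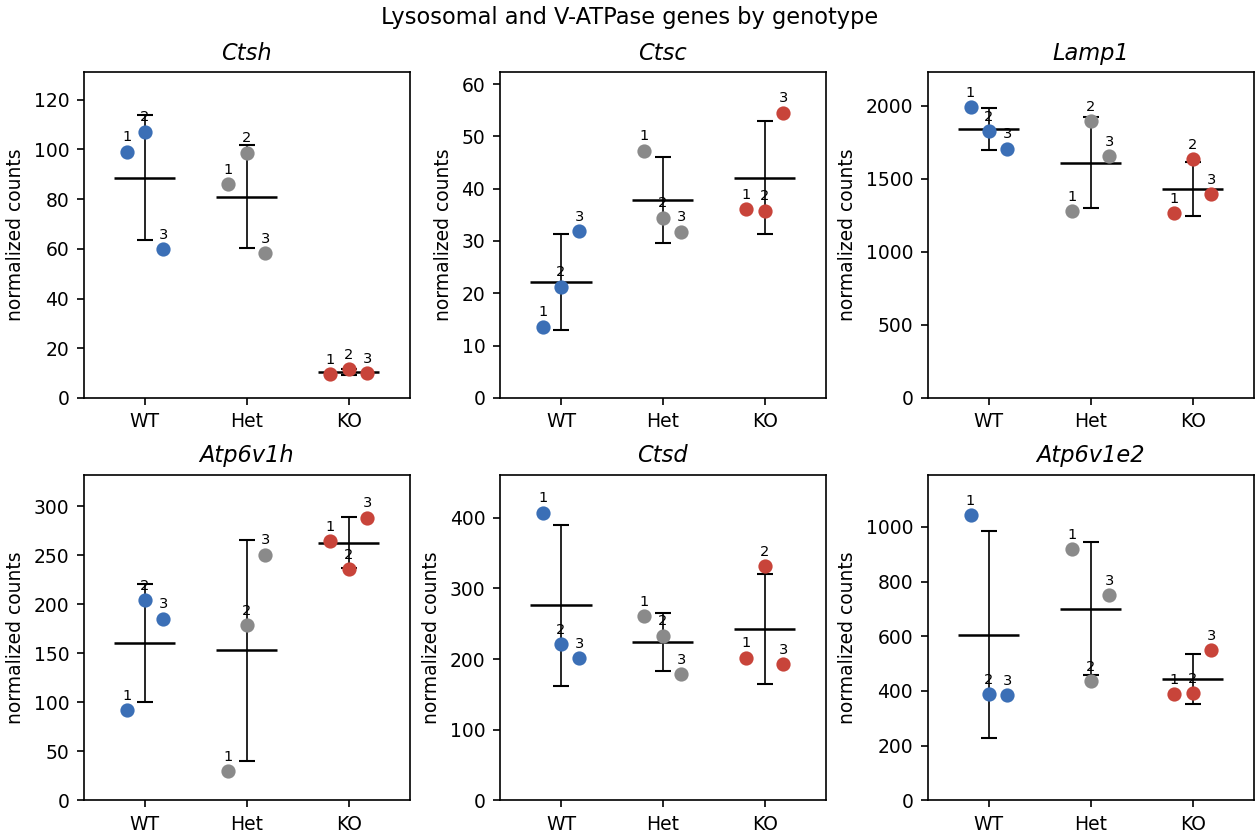
Normalized counts (y axis, linear, from 0) of 6 genes in each sample of the 3 genotypes (x axis). Points are samples with their replicate number, horizontal bars are means and error bars are SD (n = 3). Ctsh in KO lies between 9.45 and 11.6, below all WT and Het samples, whereas the genotypes overlap for Ctsd and Atp6v1e2.

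Of the other cathepsins, Ctsc, Ctsa and Ctso had the highest log2 fold changes. Ctsc, the dipeptidyl peptidase that activates granule serine proteases of immune cells, had 13.6, 21.2 and 31.9 normalized counts in WT, 47.2, 34.5 and 31.7 in Het, and 36.1, 35.8 and 54.5 in KO. The KO samples lay above the WT samples, although the closest pair differed only from 31.9 to 35.8. The log2 fold change was 0.94 (SE 0.39), with an unadjusted p of 0.0487 and an adjusted p of 0.610 by limma.

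Ctsa, the carboxypeptidase that protects beta-galactosidase and neuraminidase 1 in a complex, had 3.71 normalized counts in WT 1, which is 3 reads, and 43.4 to 75.5 in the other 8 samples. Its log2 fold change of 1.40 (SE 0.92, limma adjusted p = 0.643) was 0.30 without WT 1. Ctsd, the aspartic protease, had 407, 221 and 201 normalized counts in WT, 261, 233 and 179 in Het, and 202, 332 and 193 in KO, and the genotypes overlapped. Ctsb, Ctsf, Ctso, Ctss and Ctsz differed between KO and WT by -0.27 to 0.76 on the log2 scale. Ctsk, which degrades bone collagen, had at most 6.87 normalized counts in any sample and was not tested.

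Among the membrane proteins, Lamp1 was lower in all KO than in all WT samples. Lamp1 encodes a heavily glycosylated protein that lines the inner face of the lysosomal membrane. Its normalized counts were 1990, 1825 and 1706 in WT, 1277, 1895 and 1655 in Het, and 1265, 1634 and 1394 in KO. The lowest WT sample exceeded the highest KO sample by less than the SD of either genotype (142 in WT and 187 in KO). The log2 fold change was -0.37 (SE 0.17, limma adjusted p = 0.612).

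The Lamp1 locus, on the plus strand of chromosome 8 from 13159161 to 13175338, overlaps the 3′ end of Grtp1 on the other strand. Whether reads were counted by strand is not given in the sources used here, so reads of the 2 genes may not be separated. Grtp1 had 26.0, 135 and 246 normalized counts in WT, 386, 85.7 and 41.3 in Het, and 380, 193 and 282 in KO. The part of this overlap in the Lamp1 values was not tested. Lamp2, which also serves chaperone-mediated autophagy, and Npc1, which exports cholesterol from the lysosome, had log2 fold changes of 0.25 (SE 0.20) and 0.39 (SE 0.31), and neither passed the test. Lamp3 (2.90 to 12.4 normalized counts) and the calcium channel gene Mcoln1 (3.17 to 17.4) were too low to be tested.

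For all 10 hydrolases and luminal proteins tested, KO and WT samples overlapped in normalized counts, whereas 19.9% of all genes were without overlap. With reads scaled by the total counted, Asah1 was without overlap. Npc2, which hands cholesterol to NPC1, had 561, 409 and 314 normalized counts in WT, 478, 379 and 335 in Het, and 308, 479 and 335 in KO, a log2 fold change of -0.18 (SE 0.29, limma adjusted p = 0.808). Glb1, Hexa, Neu1, Tpp1, Asah1 and Lipa, which encode a galactosidase, a hexosaminidase subunit, a sialidase, a tripeptidyl peptidase, acid ceramidase and acid lipase, had log2 fold changes between -0.20 and 0.49. Gla, the galactosidase that is deficient in Fabry disease, had at most 6.35 normalized counts in any sample and was not tested.

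Gusb, Gaa, Grn and Psap had split levels, in that a sample of the same genotype was at least 4 times another. Gusb (beta-glucuronidase) was at 0 in WT 1 and at 12.5 to 30.7 in the other 8 samples, and its log2 fold change of 1.72 (SE 1.22) was 0.29 without WT 1. Gaa (acid alpha-glucosidase) had 6.19, 36.7 and 65.7 normalized counts in WT and 44.7, 7.74 and 59.9 in KO, and 53.9 to 63.3 in Het. Grn, the precursor of granulins, had 7.43, 78.1 and 94.6 in WT, 9.45, 114 and 80.4 in Het, and 55.8, 11.6 and 5.36 in KO. Grn had a log2 fold change of -1.27, with an SE of 1.19.

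Psap, whose product is cleaved into the saposins that activate sphingolipid hydrolases, showed the widest split. Its normalized counts were 4.95, 2.89 and 778 in WT, 3.78, 5.59 and 579 in Het, and 4.29, 2.90 and 4.47 in KO. Only WT 3 and Het 3 were above 6, so that 7 of the 9 samples were near the limit of detection, and Psap was not tested because fewer than 3 samples of any comparison reached 10. The gene lies on chromosome 10 from 60277627 to 60302597, and the neighbouring gene Cdh23 on the other strand had 33.5 to 62.7 normalized counts in all 9 samples.

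**Figure D3:**
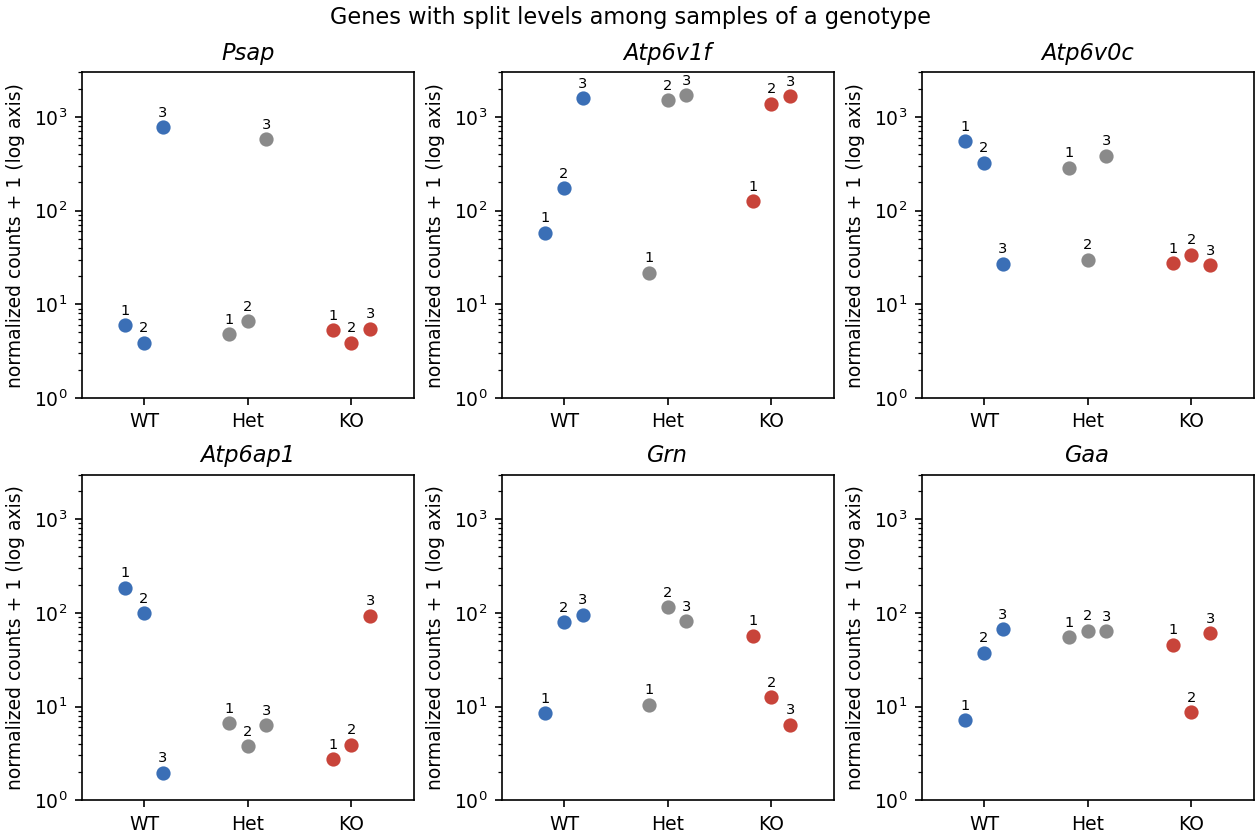
Normalized counts plus 1 (y axis, log scale) of 6 genes with split levels in each sample of the 3 genotypes (x axis), with points labelled by replicate number. High and low samples occur within a genotype. Psap reaches 778 in WT 3 and 579 in Het 3 and stays below 6 in the other 7 samples, and the 3 KO samples of Atp6v0c lie at the level of WT 3 and Het 2.

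Split levels of this kind were found for 10 of the 41 members with a mean of at least 10, against 27% of all 14165 such genes. The 10 were Ctsa, Gaa, Gusb, Psap, Grn, Tfeb, Atp6v0c, Atp6v1f, Atp6v1h and Atp6ap1. WT 1 was the lowest of the 3 WT samples for Ctsa, Gaa, Gusb, Grn, Atp6v1f and Atp6v1h, but not for Psap, Tfeb, Atp6v0c or Atp6ap1.

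Tfeb encodes a basic helix-loop-helix transcription factor that activates lysosomal and autophagy genes through E-box elements. It had 17.3, 13.5 and 11.6 normalized counts in WT, 15.1, 7.45 and 0 in Het, and 6.01, 12.6 and 11.6 in KO. The genotypes overlapped, and the log2 fold change of KO against WT was -0.49 (SE 0.44, limma adjusted p = 0.674).

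The E-box letters CACGTG, searched on both strands in a window from 250 bases before to 50 after annotated transcript starts (RefSeq, GRCm38.p6), were found in promoters of 12 of the 36 members with an entry, or 33.3%, against 8.09% of all 27025 genes in the same table. The longer palindrome TCACGTGA, which contains CACGTG, was found for 7 members, or 19.4% against 1.12%. The same palindrome with a G before and a C after it was found for 0 members, against 0.37% of all genes. These windows are shown because TFEB is known to act through such elements. They are 30 bases from the strand of the gene, with TCACGTGA in capitals, and the position is that of the window.
Ctsa (chr2:164833749-164833778, plus strand): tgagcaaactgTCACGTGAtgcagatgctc
Ctsd (chr7:142387908-142387937, minus strand): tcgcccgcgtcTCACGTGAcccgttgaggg
Gla (chrX:134601215-134601244, minus strand): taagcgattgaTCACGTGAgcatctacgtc
Mcoln1 (chr8:3500462-3500491, plus strand): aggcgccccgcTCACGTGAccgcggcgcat
Atp6v0d1 (chr8:105566050-105566079, minus strand): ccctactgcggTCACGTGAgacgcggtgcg
Atp6v0e (chr17:26676387-26676416, plus strand): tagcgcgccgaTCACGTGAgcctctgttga
Atp6v1a (chr16:44139373-44139402, minus strand): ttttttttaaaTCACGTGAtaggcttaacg
Of these 7 genes, Ctsa, Ctsd, Atp6v0d1, Atp6v0e and Atp6v1a were tested in KO against WT, with log2 fold changes of 1.40, -0.16, 0.05, 0.26 and 0.43, and none passed the test. A match describes the letters in the window and is neither a binding site nor a cause of any value given here.

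In the V0 sector, which forms the proton channel in the membrane, 5 of the 6 genes had log2 fold changes between -0.41 and 0.26. Atp6v0e had 365, 348 and 305 normalized counts in WT, 405, 370 and 296 in Het, and 397, 488 and 344 in KO. Atp6v0a1, Atp6v0a2, Atp6v0b and Atp6v0d1 likewise overlapped between genotypes.

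Atp6v0c, which encodes the proteolipid subunit of the rotating ring, was the exception. Its normalized counts were 550, 323 and 26.1 in WT, 286, 28.9 and 384 in Het, and 26.6, 32.9 and 25.0 in KO. All KO samples were low, but WT 3 and Het 2 lay in the same range. The log2 fold change was -2.54 (SE 1.09, limma adjusted p = 0.610), and DESeq2 gave an adjusted p of 0.0199. Leaving out WT samples moved this value both ways, to -1.69 without WT 1 (limma adjusted p = 0.614), -2.07 without WT 2 (0.576) and -3.87 without WT 3 (0.0907). The gene lies on the minus strand of chromosome 17 from 24163866 to 24169702, and its neighbour Amdhd2 on the same strand had 596, 470 and 325 normalized counts in WT and 380, 199 and 265 in KO.

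In the V1 sector, which hydrolyses ATP, 6 of 9 genes had log2 fold changes above 0 and none passed the test. Atp6v1h, a subunit that regulates the coupling of both sectors, had 91.6, 205 and 185 normalized counts in WT, 29.3, 179 and 251 in Het, and 265, 236 and 289 in KO. The KO samples lay above all WT samples, the log2 fold change was 0.79 (SE 0.34) and the adjusted p was 0.610 by limma. Without WT 1 the log2 fold change was 0.43.

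Atp6v1f, a subunit of the central stalk, had 57.0, 174 and 1593 normalized counts in WT, 20.8, 1509 and 1699 in Het, and 125, 1388 and 1655 in KO. Each genotype thus held at least 1 sample at 1388 or above and at least 1 at 174 or below, and the log2 fold change of 1.39 had an SE of 1.49. Atp6v1d, also of the central stalk, had 1304, 1190 and 963 in WT, 895, 907 and 1075 in Het, and 1359, 1054 and 1077 in KO.

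The 2 genes for subunit E, which forms the peripheral stalks, were both detected in every sample. Atp6v1e1, the widely expressed form, had 90.4, 56.0 and 72.4 normalized counts in WT, 92.6, 38.2 and 30.7 in Het, and 63.6, 84.2 and 69.7 in KO, with a log2 fold change of 0.01 (SE 0.26). Atp6v1e2, the form characteristic of testis, had 1042, 388 and 384 in WT, 917, 436 and 749 in Het, and 387, 392 and 548 in KO. Its log2 fold change of -0.30 (SE 0.43) rested on WT 1, without which it was 0.18. Atp6v1a, Atp6v1b2, Atp6v1c1 and Atp6v1g1 had log2 fold changes from -0.25 to 0.43.

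Both accessory proteins of the pump were measured. Atp6ap1 had 184, 97.4 and 0.966 normalized counts in WT, 5.67, 2.79 and 5.29 in Het, and 1.72, 2.90 and 92.1 in KO. It was high in 3 samples, WT 1, WT 2 and KO 3, and its log2 fold change of -1.73 had an SE of 2.11. Atp6ap2, also called the prorenin receptor, had 131, 83.0 and 96.6 in WT, 161, 118 and 130 in Het, and 101, 138 and 106 in KO, with a log2 fold change of 0.17 (SE 0.26).

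**Figure D4:**
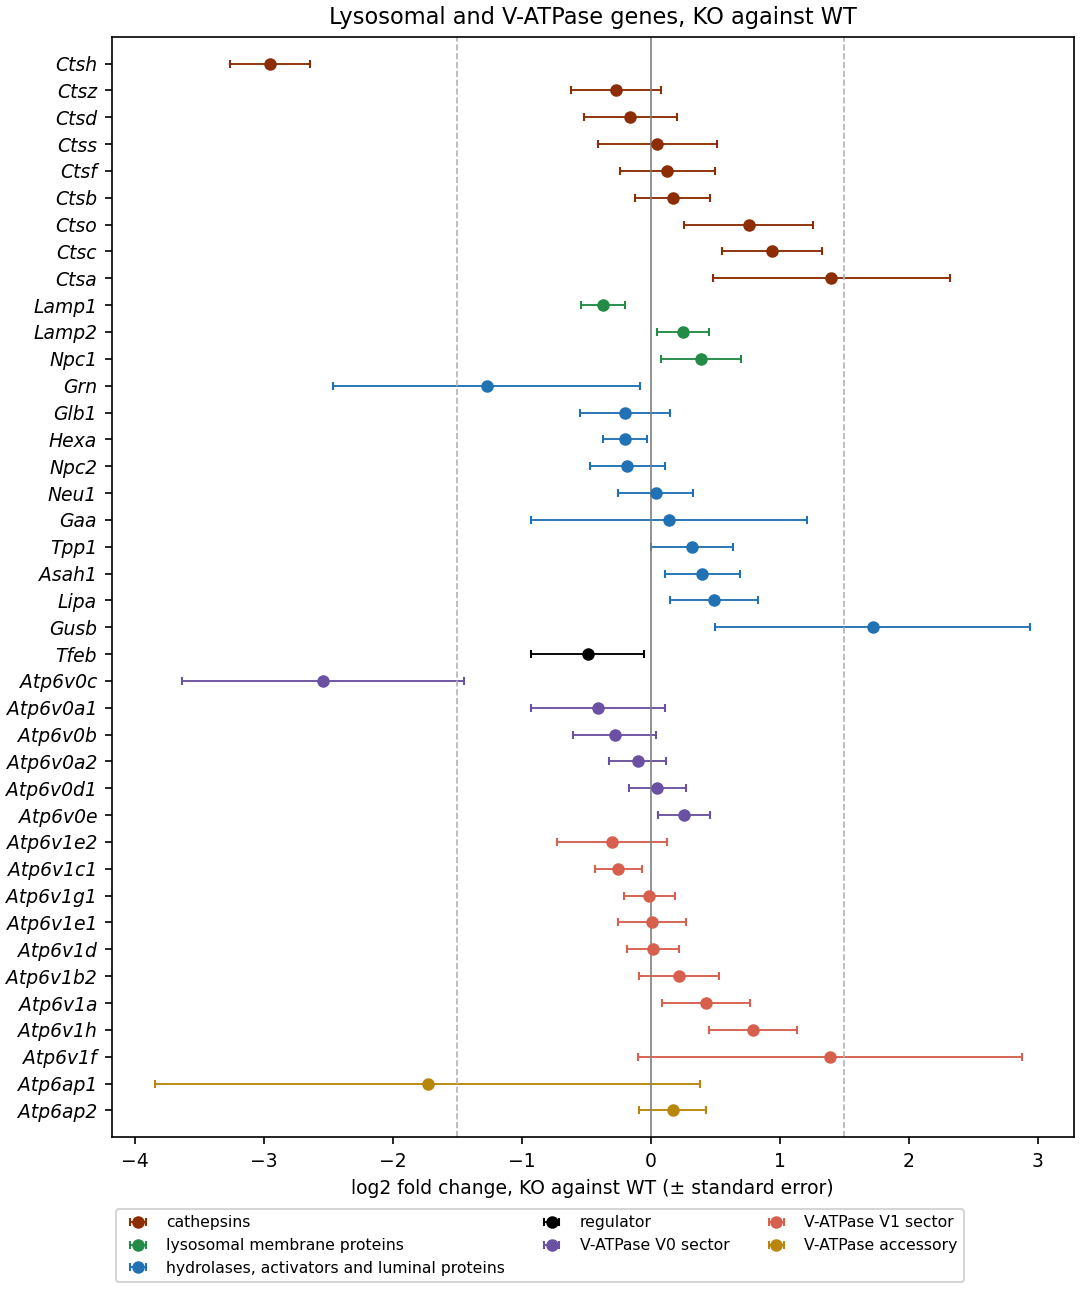
Log2 fold change of KO against WT (x axis, on log2 of normalized count plus 1) with its standard error for the 40 genes tested, ordered within roles shown by colour. Dashed lines mark 1.5 in either direction. Ctsh at -2.95 has an SE of 0.31, whereas the other 3 genes with changes beyond 1.5, Atp6v0c, Atp6ap1 and Gusb, have SEs of 1.09, 2.11 and 1.22.

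In the comparison of Het with WT, 39 members were tested and none was called, as for all 14216 genes (0%), while DESeq2 called no member and 0.218% of all genes. No member had an unadjusted p under 0.05, against 3.34% of all genes. The median log2 fold change was 0.08 over the members and 0.01 over all genes, with 21 members above 0 and 18 below. With reads scaled by the total counted, the medians were 0.23 and 0.16. The split of members was then 27 to 12, for which the share of all genes is not given here. Lipa was higher and Atp6v1c1 lower in all Het than in all WT samples, and together these are 5.13% of the members tested against 13.3% of all genes.

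In the comparison of KO with Het, 39 members were tested and none was called, against 0.0558% of all 14343 genes. Ctsh and Atp6v0c had an unadjusted p under 0.05, which is 5.13% of the members against 3.56% of all genes. DESeq2 called Ctsh alone among the members, against 0.265% of all genes. Ctsh was lower, and Ctso and Atp6v1a were higher, in all KO than in all Het samples. These 3 are 7.69% of the members, against 10% of all genes. The log2 fold change of Atp6v0c was -2.36 (SE 0.95, limma adjusted p = 0.973), and it was -1.89 without Het 1 (adjusted p = 0.821), -3.52 without Het 2 (0.0152) and -1.68 without Het 3 (1.0).

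Other genes of the pathway were examined in 4 lists, comprising further hydrolases and activators, membrane and sorting proteins, V-ATPase subunits with assembly factors, and relatives and regulators of TFEB. Of 81 genes listed, 79 had a row. In KO against WT, 64 were tested, none was called, and 5 had an unadjusted p under 0.05, or 7.81% against 8.07% of all genes. Their median log2 fold change was 0.14. In Het against WT none of 66 was called and 4 had an unadjusted p under 0.05, or 6.06% against 3.34% of all genes. In KO against Het none of 63 was called and 1 had such a p, or 1.59% against 3.56%.

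Those 5 genes were chosen for naming after their values were seen. Lamtor1, a subunit of the Ragulator complex that anchors mTORC1 to the lysosome, had 130, 293 and 264 normalized counts in WT, 1032, 498 and 730 in Het, and 482, 475 and 659 in KO, a log2 fold change of KO against WT of 1.3 (SE 0.35). Lamtor3, of the same complex, differed by 1.08 (SE 0.35), Dmxl1, a V-ATPase assembly factor, by 0.93 (SE 0.28), and Fnip1, a folliculin partner, by 0.64 (SE 0.18). Laptm4a, a lysosomal membrane protein, was lower, by -0.44 (SE 0.18). All 5 had an adjusted p of 0.610 by limma.

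Summed markers of some germ cell stages differed in range between the genotypes. No marker was called in KO against WT, where 0.0352% of all genes were. By limma, 2 of 4 spermatogonia and 2 of 5 spermatocyte markers tested had an unadjusted p under 0.05, against 8.07% of all genes. So did 2 of 6 round spermatid and 2 of 4 elongating spermatid markers, 1 of 7 Sertoli cell markers and 0 of 5 Leydig cell markers. The paper reports non-significant differences for its own marker sets, which include transition proteins and protamines. The 4 elongating spermatid markers (Tnp1, Tnp2, Prm1 and Prm2) summed to 233289 to 249362 normalized counts in WT, 179063 to 214894 in Het and 123388 to 199672 in KO, and all 4 had log2 fold changes below 0 in KO against WT, under either scaling. The lowest KO sum was that of KO 2, where Tnp1 was 34000 against 61400 in KO 1 and 61000 in KO 3. The 6 round spermatid markers summed to 4398 to 5151 in WT, 4051 to 4742 in Het and 2604 to 3874 in KO. They did not move one way, since 2 were higher and 4 lower in KO than in WT. With reads scaled by the total counted, 3 were higher and 3 lower. The 5 spermatocyte markers with a row summed to 3804 to 4856 in WT, 3843 to 6154 in Het and 5531 to 6577 in KO. The Het range thus overlapped both others. All 5 were higher in KO than in WT under either scaling. The Leydig cell markers summed to 2197 to 3604 in WT, 1581 to 2436 in Het and 2053 to 2985 in KO. For the Sertoli cell markers the sums were 3074 to 3852, 2392 to 3884 and 2628 to 5037 in the same order. For the endothelial markers they were 55.0 to 64.7, 86.6 to 125 and 55.0 to 93.8. The part of these differences in the values of the lysosomal and V-ATPase genes was not tested.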

How the data were processed

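The authors trimmed the reads with Trim Galore 0.4.5, aligned them to GRCm38 with HISAT2 2.1, counted genes with StringTie 1.3.3 and removed pseudogenes. The deposited values are signal values, that is, counts per gene scaled with DESeq2's size factors. Dividing each value by that of 1 count gave whole numbers (within 0.01) for 100% of values above 0, and 0 columns of sample values were left unused. The study prepared its gene counts with a script of StringTie, so whole numbers do not show that they are aligned reads. These counts are called reads, or recovered reads, in this text. Genotypes and replicate numbers came from the sample titles.

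Genes that reached 10 in 3 or more of the 6 libraries compared were tested with limma 3.58.1 (eBayes with a trend, two-sided) on log2(value + 1) in R 4.3.3. Benjamini-Hochberg adjustment covered all genes tested. Thresholds are those of the study, which applied them to a DESeq2 test and not to limma. DESeq2 1.42.0 and edgeR 4.0.16 were alternatives on recovered reads. The functions were tested on simulated counts with the same dispersion for all genes. These counts were not made to hold split levels, so the simulation does not show how the tests behave for such genes. Members, lists and the rule for named genes were chosen with earlier results of these data known. The rule named genes with an unadjusted p under 0.05 in any comparison, without overlap between KO and WT, among the 6 largest changes, with split levels, or highest in their role, plus Tfeb, Lamp1, Ctsh, Atp6v1e1 and Atp6v1e2. Gene positions are from GENCODE on GRCm38.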

Additional observations from a re-analysis of the deposited data

How the results depend on the processing

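The number of members called was 0 in each comparison under TMM factors, edgeR, both other pseudocounts, both other filters and the replicate block. For these settings, and for fits with samples left out, the share of all genes called is not given here. These counts therefore do not set the members apart from other genes. For KO against WT it was 2 with DESeq2 and 1 with all 9 samples in 1 fit, and it stayed between 0 and 0 when samples were left out 1 at a time. For KO against Het it was 1 with DESeq2 and 1 with all 9 samples in 1 fit, and between 0 and 1 when samples were left out, the 1 being Atp6v0c without Het 2. For Het against WT it was 0 throughout. Whether replicate numbers pair the samples was not settled. Correlations of deviations from the genotype means were -0.14 to 0.20 for same-numbered samples, with 2 of 9 above 0.1. Differently numbered samples spanned a similar range, from -0.25 (WT 1 with Het 2) to 0.20 (Het 2 with KO 1). With so few samples per genotype, such deviations depend on each other, so this check cannot exclude that samples were paired. With the replicate block no member was called in any comparison. Ctsh in KO against WT then kept its log2 fold change of -2.95, with a limma adjusted p of 0.703. Ctsc, Lamp1 and Atp6v1h had the same adjusted p in that fit, so it says nothing particular about Ctsh. The block leaves few samples to measure the spread, so the lack of calls does not bear on whether Ctsh differs.

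Directions turned for values near 0. Atp6v1e1 in KO against WT was -0.01 with DESeq2 and -0.17 to 0.17 with samples left out, Atp6v1e2 was -0.54 to 0.18, and Ctsh in Het against WT was -0.38 to 0.10, or 0.03 with reads scaled by the total counted, an alternative chosen after seeing the data. The cause was not tested. The median log2 fold change of the members was 0.24 in KO against WT and 0.23 in Het against WT with reads scaled by the total counted, and -0.05 in Het against WT without Het 1. Under TMM factors 1 member in place of 2 was without overlap in Het against WT. With 3 samples per genotype, and 11 or 12 reads behind Ctsh in KO, differences of low genes are measured coarsely.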
